A study of Mus musculus with 16 samples.

Results

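Foxp3 and 4 members of the Ikaros family of zinc finger transcription factors, Ikzf1 (Ikaros), Ikzf2 (Helios), Ikzf3 (Aiolos) and Ikzf4 (Eos), were followed by their annotated symbols through the array values of mouse CD4+ T cell subsets, and each symbol had 1 probe set. These 5 genes were taken from 16475 genes tested. The arrays measured cytosolic mRNA and polysome-associated mRNA, the mRNA that carries at least 3 ribosomes, and the comparison was set up to find transcripts whose translation differs between the subsets. Each of the 8 groups of subset, state and RNA fraction had 2 arrays, described in the methods as biological duplicates. The p-values measure only the spread between duplicate arrays, pooled for each gene over the 8 groups and moderated over all genes. In this main fit a gene has the same SE in every comparison of 2 groups, whatever the spread of those groups.

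The cells of all groups were isolated from the spleens and lymph nodes of C57BL/6 mice that carry a GFP-Foxp3 knock-in reporter, and female animals of 6 to 12 weeks were used. The groups were Foxp3+ activated polysome, Foxp3- activated polysome, Foxp3+ activated cytosolic, Foxp3- activated cytosolic, Foxp3+ ex vivo polysome, Foxp3- ex vivo polysome, Foxp3+ ex vivo cytosolic and Foxp3- ex vivo cytosolic. CD4+ cells were sorted as Foxp3+ or Foxp3- on the GFP reporter to a purity above 97%. For activation, CD3 and CD28 antibodies bound to the plate (5 µg/ml) and recombinant human IL-2 (100 U/ml) acted on the cells for 36 h, and ex vivo cells were taken directly. Ribosomes were held on the mRNA of every group with cycloheximide (100 µg/ml). Ex vivo cells had it in every buffer and medium, whereas activated cells received it when the culture ended, so its timing differed with state. Each ex vivo sample pooled RNA of 2 experiments. The GFP+ sort does not separate thymus-derived from peripherally induced Foxp3+ cells, and neither the GFP+ nor the GFP- gate separates naive from memory cells.

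Foxp3 is the forkhead transcription factor that defines regulatory T cells, and loss of its function causes fatal autoimmunity in mice. Ikaros proteins bind DNA through zinc fingers in their amino-terminal part and pair with each other through zinc fingers at the carboxy terminus. Ikaros is needed for normal lymphocyte development, Helios and Eos are abundant in regulatory T cells, Eos acts with Foxp3 in gene silencing, and Aiolos is known from B cells and from activated helper T cells.

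In the mouse genome (GRCm38.p6, RefSeq annotation), Foxp3 lies at chrX:7579676-7595243, Ikzf1 at chr11:11684962-11772930, Ikzf2 at chr1:69531207-69687351, Ikzf3 at chr11:98464610-98546031 and Ikzf4 at chr10:128630839-128669671. Promoter windows of RefSeq (GRCm38.p6) matched 2 of the 5 members, Foxp3 and Ikzf1, each with 2 annotated starts. The windows of Foxp3 are shown because this gene defines the sorted subsets, and transcripts from both starts fall in the same probe set. Each is the plus strand, 5' to 3', over the 250 bases before a start, and capitals mark matches to the searched letters.
Foxp3, chrX:7579426-7579675: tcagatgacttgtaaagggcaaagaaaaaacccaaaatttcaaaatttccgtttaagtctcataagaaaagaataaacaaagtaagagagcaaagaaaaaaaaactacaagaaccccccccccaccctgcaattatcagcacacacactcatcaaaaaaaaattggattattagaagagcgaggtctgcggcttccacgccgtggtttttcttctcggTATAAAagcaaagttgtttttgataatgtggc
Foxp3, chrX:7580233-7580482: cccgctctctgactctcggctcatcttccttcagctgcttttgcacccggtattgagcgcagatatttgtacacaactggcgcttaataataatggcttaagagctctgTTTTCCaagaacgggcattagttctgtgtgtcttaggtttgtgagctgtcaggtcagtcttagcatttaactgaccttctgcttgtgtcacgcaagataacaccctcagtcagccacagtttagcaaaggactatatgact

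The letters searched on both strands were TATAAA (the core promoter element), GGAAAA (NFAT core), TGGGAA (Ikaros family core), TGTTTAC (forkhead) and TGTGGT (Runx), of which TGGGAA and GGAAAA can overlap. The window of the upstream start held TATAAA, beginning 32 bases before the start, and 37.6% of its bases were G or C. The window of the downstream start held GGAAAA on the opposite strand, 141 bases before the start, and 46% of its bases were G or C. Among 32841 promoter windows of the same length, 12.4% held TATAAA, 20.4% GGAAAA, 21.6% TGGGAA, 3.17% TGTTTAC and 14% TGTGGT. A match describes the letters only.

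Values were log2 intensities after robust multi-array averaging (RMA), with array medians between 4.84 and 5.06. Arrays of a group correlated across genes with r of 0.980 to 0.992 ex vivo, 0.941 to 0.945 in activated Foxp3- cells and 0.887 to 0.888 in activated Foxp3+ cells, so values of activated Foxp3+ cells carry the widest spread. By their file names the arrays fall in 3 series, of ex vivo cells, activated Foxp3- cells and activated Foxp3+ cells, so series cannot be told apart from state, nor from subset in activated cells. The mean of 7 CD4 T cell markers lay between 10.5 and 11.4 on every array. In activated cells the mean of 9 myeloid markers was higher in Foxp3+ cells (4.85 to 4.97 on polysome arrays and 4.89 to 5.19 on cytosolic arrays) than in Foxp3- cells (4.10 to 4.45 and 3.95 to 4.14), with 2 of 9 called higher in polysomes and 3 of 9 in the cytosol. Over all genes 18.7% were called higher in polysomes of activated Foxp3+ cells and 13.8% in their cytosol. With array weights 0 of the 9 myeloid markers were called in polysomes and 1 in the cytosol. The mean of 7 B cell markers in activated cells was 4.13 to 4.24 and 4.33 to 4.67 in Foxp3+ cells, against 3.66 to 3.74 and 3.99 to 4.16 in Foxp3- cells, with 1 of 7 called higher in polysomes and 3 of 7 in the cytosol. With array weights 1 of the 7 B cell markers was called in polysomes and 0 in the cytosol. Of 4 NK cell markers 1 was called higher in polysomes (mean of the list 3.95 to 4.10 in activated Foxp3+ cells, against 3.68 to 3.72 in activated Foxp3- cells) and 0 in the cytosol (4.08 to 4.36, against 3.91 to 4.09), where limma gave 0 at an unadjusted p under 0.05 and 0 with array weights. Of 2 CD8 T cell markers 0 were called in polysomes, also at an unadjusted p under 0.05 or with array weights, and 1 was called higher in the cytosol (4.96 to 5.04, against 4.66 to 4.75). That cytosolic call was lost with array weights, where 0 of the 2 were called. The part of these cells in the results was not tested.

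Foxp3 itself checked the labels, since the cells had been sorted on its reporter. In activated cells, polysome-associated Foxp3 mRNA had log2 intensities of 9.42 and 10.76 in Foxp3+ cells, against 6.85 and 5.26 in Foxp3- cells. Cytosolic Foxp3 mRNA had 10.48 and 9.76 in activated Foxp3+ cells, against 5.28 and 5.86 in activated Foxp3- cells. All 4 activated Foxp3+ arrays lay above all 4 activated Foxp3- arrays. In ex vivo cells, polysome values were 10.46 and 10.59 in Foxp3+ cells, against 4.57 and 4.74 in Foxp3- cells. Ex vivo cytosolic values were 10.29 and 10.65 in Foxp3+ cells, against 3.74 and 3.75 in Foxp3- cells. The difference between Foxp3+ and Foxp3- cells was 4.04 (polysome) and 4.55 (cytosolic) after activation and 5.88 (polysome) and 6.72 (cytosolic) ex vivo, on the log2 scale, and no array went against its label.

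The 4 groups of Foxp3+ cells came first in the order of Foxp3 levels, between 10.09 ± 0.95 and 10.53 ± 0.09 (SD, n = 2 each), and neighbouring groups among them overlapped. The gap to the next group, Foxp3- activated polysome (6.05 ± 1.13, SD, n = 2), was 4.04, and this group overlapped Foxp3- activated cytosolic (5.57 ± 0.41, SD, n = 2). Foxp3- ex vivo polysome (4.65 ± 0.12, SD, n = 2) and Foxp3- ex vivo cytosolic (3.75, SD 0.0023, n = 2) stood apart from each other and below the activated Foxp3- groups.

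**Figure D1:**
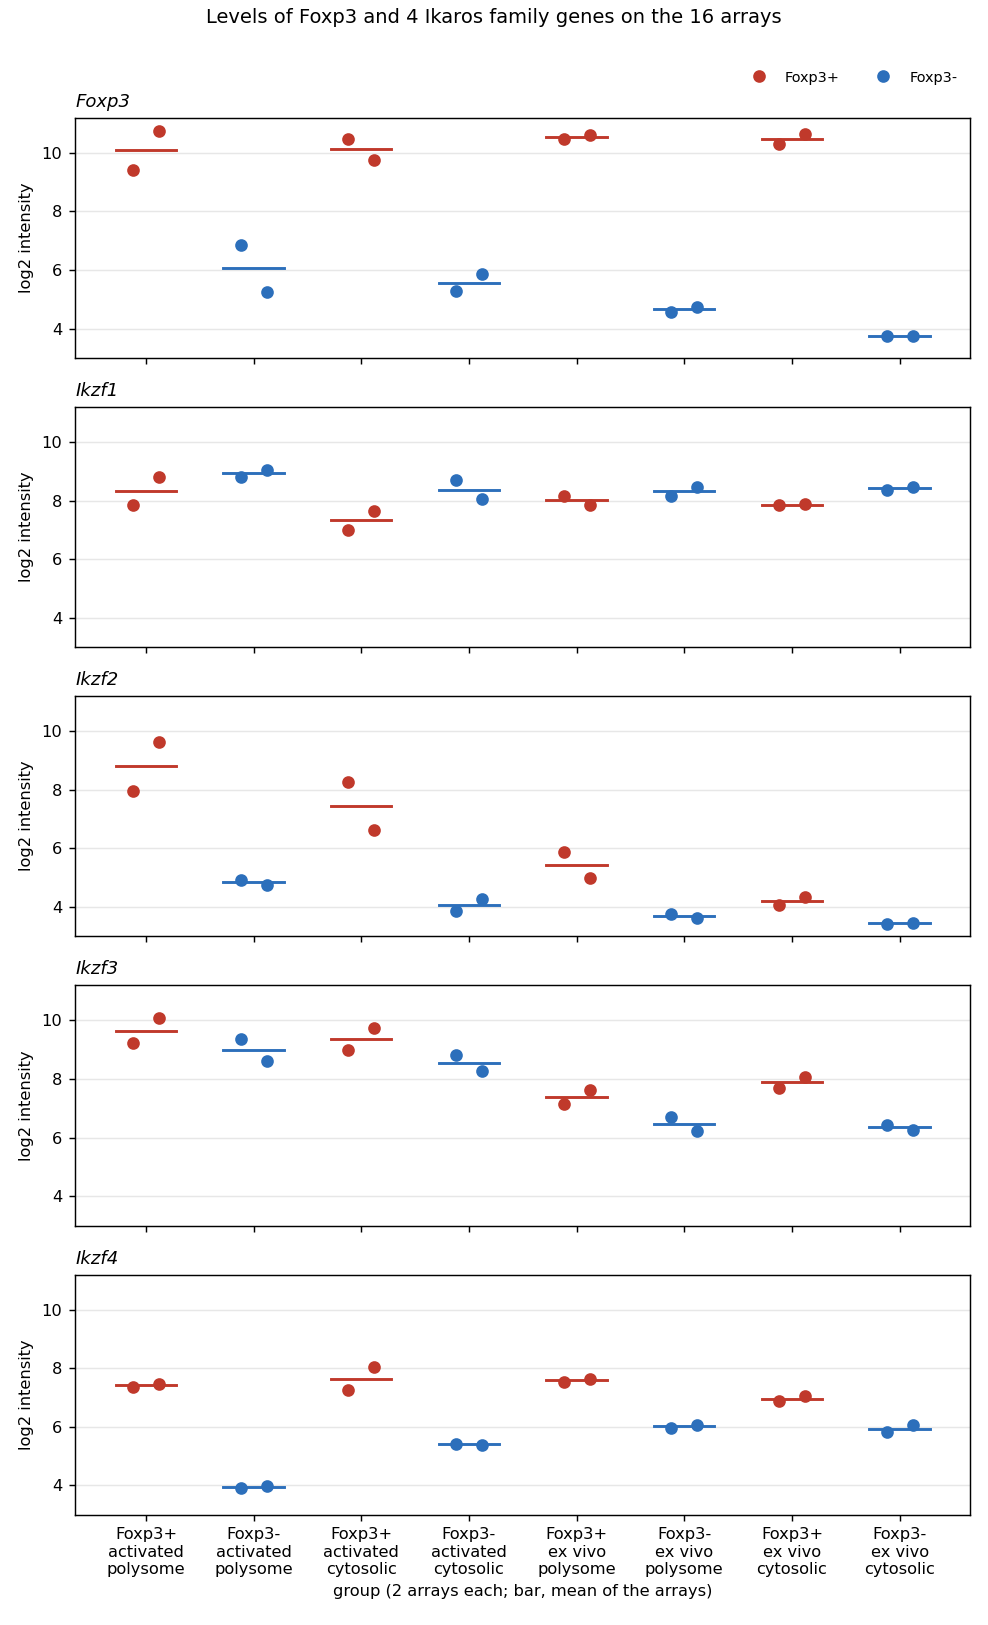
Log2 intensity (y axis) of Foxp3, Ikzf1, Ikzf2, Ikzf3 and Ikzf4 in the 8 groups (x axis), with a point for each of the 2 arrays and a bar at their mean; Foxp3+ cells are red and Foxp3- cells blue. Foxp3 and Ikzf4 of Foxp3+ cells lie above those of Foxp3- cells in every pair of groups, Ikzf2 is highest in activated Foxp3+ cells, Ikzf3 is highest in activated cells of both subsets, and Ikzf1 varies least.

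Ikzf4 was higher in Foxp3+ cells in both fractions and both states. Eos, its product, is known as a partner of Foxp3 that recruits corepressors. In activated cells, polysome-associated Ikzf4 mRNA had log2 intensities of 7.36 and 7.48 in Foxp3+ cells, against 3.92 and 3.98 in Foxp3- cells. Cytosolic Ikzf4 mRNA had 7.27 and 8.03 in activated Foxp3+ cells, against 5.43 and 5.39 in activated Foxp3- cells. The 2 activated Foxp3- polysome arrays were the lowest of all 16 arrays for this gene. In ex vivo cells, polysome values were 7.54 and 7.64 in Foxp3+ cells, against 5.95 and 6.07 in Foxp3- cells. Ex vivo cytosolic values were 6.89 and 7.05 in Foxp3+ cells, against 5.81 and 6.06 in Foxp3- cells. Arrays of the subsets did not overlap in any of the 4 pairs. With 2 arrays in each group, non-overlap here and below is a description and no test. Uncalled differences also stood apart, such as that of Ikzf1 in ex vivo polysomes (limma adjusted p = 0.802). The share of all genes whose arrays stood apart was not counted.

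Subset differences were called at an adjusted p under 0.15, a threshold that the study's methods give for activated cells and that was carried over to ex vivo cells. At 0.05 the ex vivo cytosolic calls of Ikzf4 and Ikzf3 and the activated cytosolic call of Ikzf1 would not be made. The log2 difference of Ikzf4 between Foxp3+ and Foxp3- cells was 3.47 ± 0.24 (SE) in polysomes of activated cells (at least 11.1-fold, limma adjusted p = 4.55e-05) and 2.24 ± 0.24 in their cytosol (4.73-fold, limma adjusted p = 6.47e-04). Ex vivo it was 1.57 ± 0.24 in polysomes (2.98-fold, limma adjusted p = 0.0120) and 1.03 ± 0.24 in the cytosol (2.04-fold, limma adjusted p = 0.0643). The activated Foxp3- polysome mean of 3.95 had only 33.3% of genes below it and lay near the mean of the B cell markers on those arrays, so it was not shown to be above background. Folds against group means below the middle of all genes are therefore written as at least, and log2 differences against them are bounds in the same way. In bulk samples fewer cells of a type and less RNA per cell cannot be told apart. Of these calls, the ex vivo cytosolic value did not pass with an intensity trend in the prior variance (limma adjusted p = 0.162), nor without array 1 (0.270), 3 (0.518), 5 (0.316) or 7 (0.211), the 4 arrays it compares.

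Ikzf2, which encodes Helios, was called higher in Foxp3+ cells after activation. Its polysome values in activated cells were 7.96 and 9.64 in Foxp3+ cells, against 4.94 and 4.73 in Foxp3- cells. Cytosolic values in activated cells were 8.27 and 6.62 in Foxp3+ cells, against 3.87 and 4.27 in Foxp3- cells. The activated Foxp3+ arrays were the 4 highest of the 16, with a wide spread within each pair. In ex vivo cells, polysome values were 5.89 and 4.99 in Foxp3+ cells, against 3.76 and 3.64 in Foxp3- cells. Ex vivo cytosolic values were 4.06 and 4.33 in Foxp3+ cells, against 3.43 and 3.45 in Foxp3- cells. Arrays of the subsets did not overlap in any pair of groups for Ikzf2 either, including the ex vivo pairs that were not called.

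The difference of Ikzf2 between Foxp3+ and Foxp3- activated cells was 3.96 ± 0.58 (SE) in polysomes (at least 15.6-fold, limma adjusted p = 0.00186) and 3.38 ± 0.58 in the cytosol (at least 10.4-fold, limma adjusted p = 0.00522), and leaving out arrays or changing the fit kept both calls, at 3.12 to 4.80 and 2.55 to 4.20. The Foxp3- means, 4.84 and 4.07, had 49.8% and 33.4% of genes below them. Ex vivo the difference was 1.74 in polysomes (95% interval 0.48 to 3.01, limma adjusted p = 0.211) and 0.76 in the cytosol (95% interval -0.51 to 2.02, limma adjusted p = 0.685), and neither was called. With only the arrays compared, both ex vivo values passed (limma adjusted p = 0.0401 and 0.0330), as they did with array weights (0.00412 and 0.0783). The ex vivo cytosolic means, 4.20 in Foxp3+ and 3.44 in Foxp3- cells, had 35.2% and 22.7% of genes below them. Neither was shown to be above background, nor was the ex vivo Foxp3- polysome mean of 3.70 (27.5% of genes below). The ex vivo polysome value also passed without any of the activated Foxp3+ arrays 13, 14, 15 or 16 (0.0956 to 0.104).

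Ikzf3, which encodes Aiolos, was called higher in Foxp3+ cells in 1 of the 4 subset comparisons, the ex vivo cytosol. Its polysome values in activated cells were 9.22 and 10.07 in Foxp3+ cells, against 9.35 and 8.61 in Foxp3- cells, and these arrays overlapped. Cytosolic values in activated cells were 8.99 and 9.74 in Foxp3+ cells, against 8.81 and 8.26 in Foxp3- cells. After activation both Foxp3+ means were the higher, by less than the test required. In ex vivo cells, polysome values were 7.14 and 7.64 in Foxp3+ cells, against 6.70 and 6.23 in Foxp3- cells. Ex vivo cytosolic values were 7.70 and 8.08 in Foxp3+ cells, against 6.45 and 6.27 in Foxp3- cells. Ex vivo arrays of the subsets stood apart in both fractions.

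The ex vivo cytosolic difference of Ikzf3 was 1.53 ± 0.39 (SE) on the log2 scale (2.89-fold, limma adjusted p = 0.0880). It was 0.93 in ex vivo polysomes (95% interval 0.06 to 1.79), 0.83 in the cytosol of activated cells (-0.03 to 1.69) and 0.66 in their polysomes (-0.20 to 1.53), with limma adjusted p of 0.362, 0.188 and 0.257. The call was lost without array 1 (0.290), 3 (0.436), 5 (0.402) or 7 (0.378), the 4 arrays it compares. Other values gained a call: ex vivo polysomes with only the arrays compared (0.1003) or array weights (0.0369), activated cytosol after cyclic loess (1.34, adjusted p = 0.0390) or without array 13 (0.116), 14 or 16 (0.138 each), and activated polysomes after cyclic loess (0.140) or without array 14 (0.124).

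Ikzf1 was the member with the lowest values in Foxp3+ relative to Foxp3- cells. In activated cells its polysome values were 7.84 and 8.79 in Foxp3+ cells, against 8.79 and 9.06 in Foxp3- cells. Cytosolic values in activated cells were 7.003 and 7.66 in Foxp3+ cells, against 8.69 and 8.06 in Foxp3- cells. Every activated Foxp3+ array was below the Foxp3- arrays of its fraction, in polysomes by as little as 0.01. In ex vivo cells, polysome values were 8.15 and 7.86 in Foxp3+ cells, against 8.16 and 8.47 in Foxp3- cells. Ex vivo cytosolic values were 7.83 and 7.89 in Foxp3+ cells, against 8.37 and 8.45 in Foxp3- cells. The pairs did not overlap ex vivo, although array 2 of Foxp3+ polysomes and array 4 of Foxp3- polysomes differed by only 0.01.

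In the cytosol of activated cells Ikzf1 was called lower in Foxp3+ cells, at -1.04 ± 0.34 (SE) on the log2 scale (limma adjusted p = 0.0711). The call was lost with only the arrays compared (limma adjusted p = 0.340), with array weights (0.212), after cyclic loess (-0.54, 0.301), without array 9 (-0.73, 0.317) and without array 13 (-0.72, 0.272). The other subset differences were -0.61 in polysomes of activated cells (95% interval -1.36 to 0.14, adjusted p = 0.232), -0.31 in ex vivo polysomes (-1.06 to 0.44, adjusted p = 0.802) and -0.55 in the ex vivo cytosol (-1.30 to 0.20, adjusted p = 0.583). Without array 16 the polysome value of activated cells passed (-1.09, adjusted p = 0.0558), and the ex vivo cytosolic value passed with only the arrays compared (0.0574) or with array weights (0.0492). Ikzf5 (Pegasus), the remaining family gene, was called in none of the 4 subset comparisons by limma. Its ex vivo polysome difference alone of the 4 had an unadjusted p under 0.05 (-1.10, limma adjusted p = 0.214).

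Against all genes, 3 of 5 members were called higher in Foxp3+ cells in the ex vivo cytosol (Foxp3, Ikzf3 and Ikzf4), where 4.64% of genes were called (2.06% higher and 2.58% lower), and 2 of 5 in ex vivo polysomes (Foxp3 and Ikzf4), where 3.87% were called (1.62% higher and 2.25% lower). In the cytosol of activated cells 4 of 5 were called, Foxp3, Ikzf2 and Ikzf4 higher and Ikzf1 lower, beside 26.0% of genes (13.8% higher and 12.2% lower). In polysomes of activated cells Foxp3, Ikzf2 and Ikzf4 were called higher, 3 of 5, beside 32.4% of genes (18.7% higher and 13.7% lower). Foxp3 counts in each of these as the sorted gene. The background moved with the spread used: with only the arrays compared, 5185 genes in the cytosol and 3436 in polysomes were called ex vivo in place of 765 and 638, and 490 and 855 in activated cells in place of 4279 and 5338. The share of called genes that were higher in Foxp3+ cells also moved with the scaling. It was 44.4% in the ex vivo cytosol, 32.0% after centring the arrays and 49.4% after cyclic loess. In ex vivo polysomes it was 41.8%, and 35.5% and 50.9% under the same scalings. In the cytosol of activated cells it was 53.2%, and 37.3% and 52.9%, and in their polysomes 57.7%, and 44.7% and 46.0%. The median difference of the 5 was 1.03 in the ex vivo cytosol, 1.57 in ex vivo polysomes, 2.24 in the activated cytosol and 3.47 in activated polysomes, all 4 of them the value of Ikzf4, beside all-gene medians of 0.10, 0.09, 0.13 and 0.20. Centring the arrays on their medians moved the all-gene medians to -0.01, 0.02, -0.01 and 0.08, and no subset call of a member changed sign under it or under cyclic loess.

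**Figure D2:**
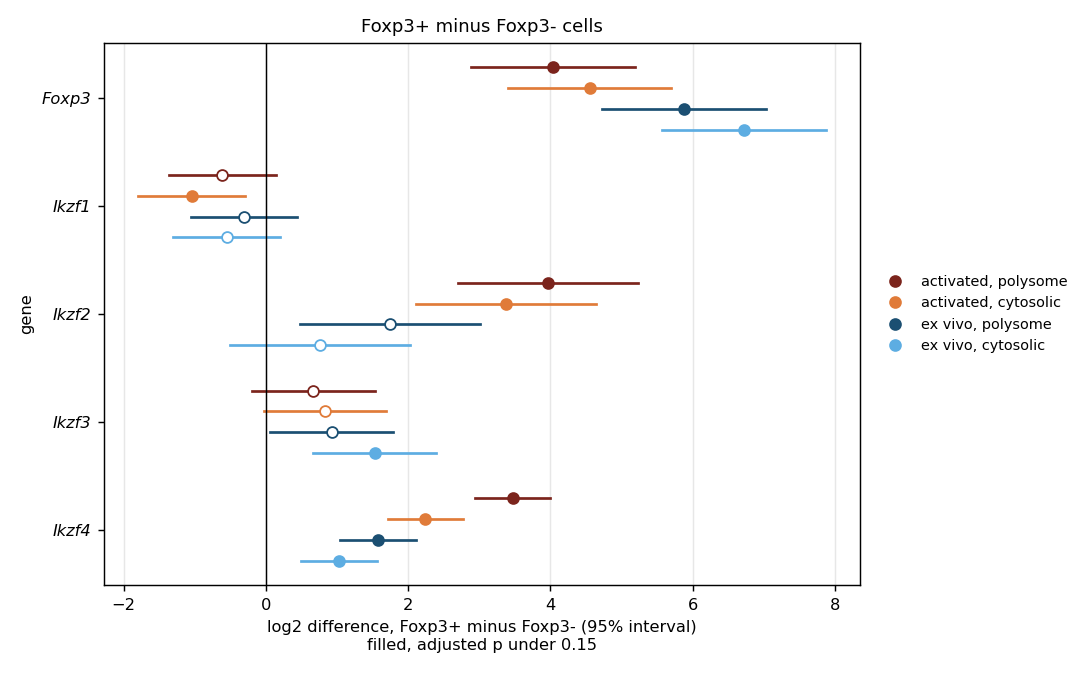
Log2 difference between Foxp3+ and Foxp3- cells (x axis, with 95% intervals from limma) for each gene (y axis) in polysome-associated and cytosolic mRNA of activated and ex vivo cells; filled points have an adjusted p under 0.15. Ikzf4 has its widest difference, 3.47, in activated polysomes and its narrowest, 1.03, in the ex vivo cytosol, Ikzf2 passes only in activated cells, and the Ikzf1 values lie below 0.

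Between activated and ex vivo cells, Ikzf3 was called higher after activation in both subsets and both fractions, and Ikzf2 in Foxp3+ cells. In all comparisons of activated with ex vivo cells, state cannot be told apart from array series. Ikzf3 was higher in activated than in ex vivo Foxp3+ cells by 2.26 ± 0.39 (SE) in polysomes (4.78-fold, limma adjusted p = 0.00175) and by 1.48 ± 0.39 in the cytosol (2.79-fold, limma adjusted p = 0.0159). In Foxp3- cells the same difference was 2.52 ± 0.39 in polysomes (5.73-fold, limma adjusted p = 6.45e-04) and 2.18 ± 0.39 in the cytosol (4.52-fold, limma adjusted p = 0.00231). No activated array of Ikzf3 overlapped an ex vivo array of its subset and fraction. The cytosolic value of Foxp3+ cells missed the threshold with only the arrays compared (0.0566), without array 1 (0.103) and without array 15 (0.0970).

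Ikzf2 was higher in activated than in ex vivo Foxp3+ cells by 3.36 ± 0.58 (SE) in polysomes (10.2-fold, limma adjusted p = 0.00163) and by 3.25 ± 0.58 in the cytosol (at least 9.51-fold, limma adjusted p = 0.00194). Both calls held under every alternative run, at 2.52 to 4.20 and 2.42 to 4.08. In Foxp3- cells the difference was 1.14 in polysomes (95% interval -0.13 to 2.41, limma adjusted p = 0.164) and 0.63 in the cytosol (-0.64 to 1.90, adjusted p = 0.455), without overlap of the arrays, and the polysome value passed with only the arrays compared (0.0162). The Foxp3- polysome means, 4.84 activated and 3.70 ex vivo, had 49.8% and 27.5% of genes below them. The Foxp3- cytosolic means, 4.07 activated and 3.44 ex vivo, had 33.4% and 22.7% of genes below them and were not shown to be above background.

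Ikzf4 fell in polysomes of Foxp3- cells with activation, by 2.06 ± 0.24 (SE) on the log2 scale (limma adjusted p = 9.53e-05), to 3.92 and 3.98 in activated cells, against 5.95 and 6.07 in ex vivo cells. This call held under every alternative run. In the cytosol of Foxp3- cells its difference was -0.53 (95% interval -1.06 to -0.001, limma adjusted p = 0.130), which passed without array 13 or 15 (0.0444 each). In Foxp3+ cells Ikzf4 differed by -0.17 in polysomes (95% interval -0.70 to 0.36, adjusted p = 0.641) and by 0.68 in the cytosol (0.15 to 1.21, adjusted p = 0.0522). The cytosolic value of Foxp3+ cells passed after cyclic loess (0.92, 0.0134) and without array 13 (1.06, 0.00590).

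Foxp3 rose with activation in the cytosol of Foxp3- cells, by 1.82 ± 0.52 (SE; at least 3.53-fold, limma adjusted p = 0.0255), and remained 4.55 below activated Foxp3+ cells in that fraction. The call was lost without array 3 (0.110), 7 (0.105) or 11 (1.53, adjusted p = 0.139). In polysomes of Foxp3- cells the difference was 1.40 (95% interval 0.25 to 2.55, limma adjusted p = 0.0644). That value passed with array weights (0.0145), among genes above the median mean (0.0485), after cyclic loess (1.79, 0.0228) and without array 12 (2.20, 0.0105), 14 or 16 (0.0359 each). In Foxp3+ cells Foxp3 differed between activated and ex vivo cells by -0.44 in polysomes (95% interval -1.59 to 0.71) and by -0.35 in the cytosol (-1.50 to 0.80), and the arrays overlapped. Ikzf1 was called in none of the 4 activation comparisons by limma, and none had an unadjusted p under 0.05. Its values ran between -0.53 and 0.62, and after cyclic loess its polysome value in Foxp3- cells passed (1.04, adjusted p = 0.0194).

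In Foxp3+ cells the members called with activation were Ikzf2 and Ikzf3, 2 of 5 in polysomes beside 29.3% of genes and 2 of 5 in the cytosol beside 31.4%. In Foxp3- cells they were Ikzf3 (higher) and Ikzf4 (lower) in polysomes, 2 of 5 beside 30.6% of genes, and Foxp3 and Ikzf3 in the cytosol, 2 of 5 beside 26.1%. With 5 genes, each of these shares is near the background. The comparisons of the subsets with activation share no arrays with each other.

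**Figure D3:**
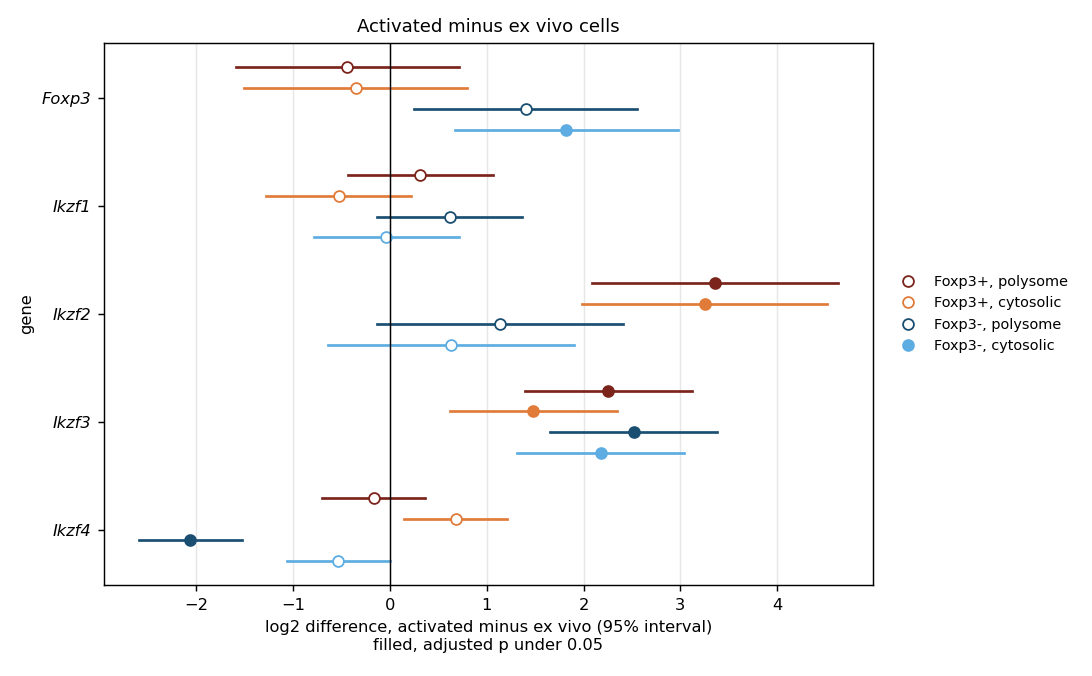
Log2 difference between activated and ex vivo cells (x axis, with 95% intervals from limma) for each gene (y axis) in polysome-associated and cytosolic mRNA of Foxp3+ and Foxp3- cells; filled points have an adjusted p under 0.05. The 4 values of Ikzf3 lie between 1.48 and 2.52, those of Ikzf2 pass in Foxp3+ cells, and the lowest value is that of Ikzf4 in Foxp3- polysomes, at -2.06.

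The response to activation was then compared between the subsets, as the activation difference of Foxp3+ cells minus that of Foxp3- cells. In polysomes the response of Ikzf4 was 1.89 ± 0.34 (SE) higher in Foxp3+ cells (limma adjusted p = 0.0179), the call of 1 of 5 members beside 2.58% of genes. It missed the threshold with an intensity trend (0.0525) and without array 2 (0.0739), 4 (0.0652), 6 (0.0584) or 8 (0.0874), which are the ex vivo polysome arrays. In the cytosol limma called 0 of 5 members, beside 2.07% of genes, with 3 of 5 at an unadjusted p under 0.05, and 0 of 5 with only the arrays compared, with array weights or with an intensity trend. The cytosolic response of Ikzf4 was 1.21 higher (95% interval 0.46 to 1.96, limma adjusted p = 0.101), and 1.59 without array 13 (adjusted p = 0.0132). For Ikzf2 the response was higher in Foxp3+ cells by 2.22 in polysomes (95% interval 0.42 to 4.01, limma adjusted p = 0.192) and by 2.62 in the cytosol (0.83 to 4.41, adjusted p = 0.135), so its activation response was not shown to differ between the subsets. The Foxp3- means of Ikzf2 in these comparisons all lay below the middle of all genes. Leaving out array 14 gave 3.06 in polysomes (adjusted p = 0.0454) and leaving out array 15 gave 3.44 in the cytosol (0.0345). For Foxp3 the difference of the responses was -1.84 in polysomes and -2.17 in the cytosol, without passing (limma adjusted p = 0.235 and 0.170). The values of Ikzf1 (-0.30 and -0.49) and Ikzf3 (-0.26 and -0.70) had limma adjusted p of at least 0.625.

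Polysome association was read as the polysome value minus the cytosolic value within a subset and state. Of 20 such differences of the members, 1 was called, that of Ikzf4 in activated Foxp3- cells. Its 2 polysome arrays stood at 3.92 and 3.98 and its 2 cytosolic arrays at 5.43 and 5.39, a difference of -1.46 ± 0.24 (SE, limma adjusted p = 0.0108), and 3.88% of genes were called there. With only these 4 arrays the adjusted p was 0.192. In activated Foxp3+ cells Ikzf4 had 7.36 and 7.48 in polysomes and 7.27 and 8.03 in the cytosol, a difference of -0.23 (95% interval -0.76 to 0.30) with overlapping arrays.

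For the other 3 comparisons of the fractions limma called 0 of 5 members. In activated Foxp3+ cells 4.66% of genes were called, and Ikzf1 (0.99) and Ikzf2 (1.35) had an unadjusted p under 0.05, 2 of 5, with adjusted p of 0.130 and 0.218. Without array 14 both passed, Ikzf1 at 1.46 (0.0298) and Ikzf2 at 2.19 (0.0436), and Ikzf2 also passed without array 13 (2.18, 0.0496). In ex vivo Foxp3+ cells 0.0364% of genes were called, and 1 of 5 members, Ikzf4, had an unadjusted p under 0.05 (0.62, limma adjusted p = 0.929). In ex vivo Foxp3- cells 0.0607% of genes were called and 0 of 5 members had an unadjusted p under 0.05. With only the arrays compared, with array weights and with an intensity trend, 0 of 5 members passed in each of these 3 comparisons.

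**Figure D4:**
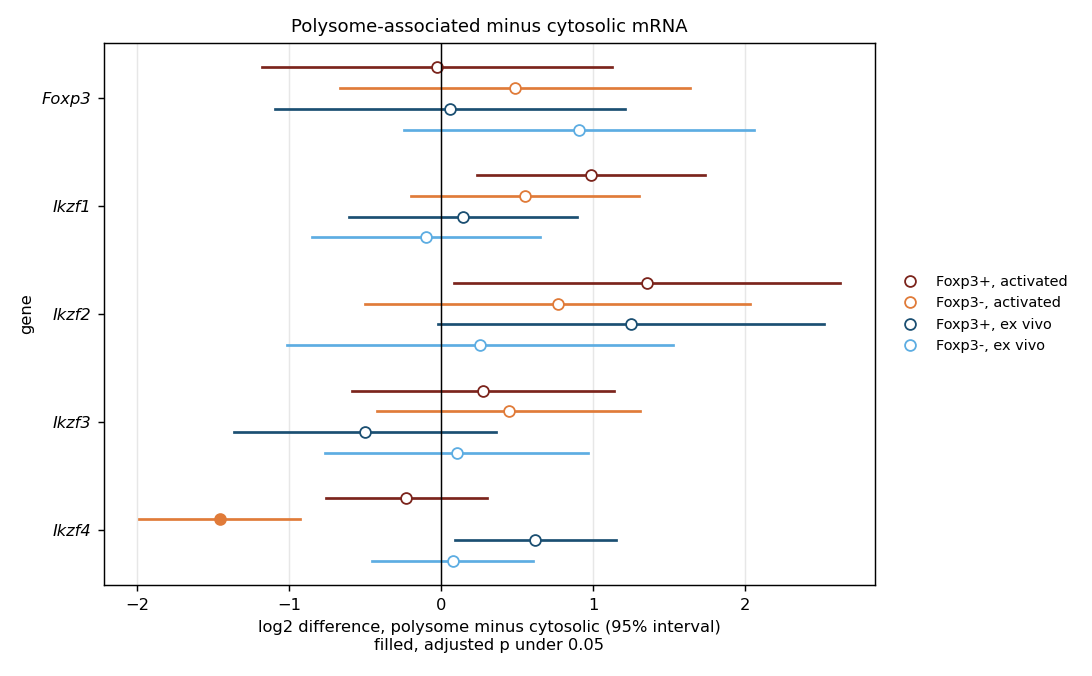
Log2 difference between polysome-associated and cytosolic mRNA (x axis, with 95% intervals from limma) for each gene (y axis) in Foxp3+ and Foxp3- cells, activated and ex vivo; the filled point has an adjusted p under 0.05. That point is Ikzf4 in activated Foxp3- cells, at -1.46, and the other values lie between -0.50 and 1.35.

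Differential translation between the subsets, the polysome minus cytosolic difference of Foxp3+ cells minus that of Foxp3- cells, was called for Ikzf4 in activated cells, 1 of 5 members beside 7.48% of genes. It was 1.23 ± 0.34 (SE, at least 2.34-fold, limma adjusted p = 0.0937), the polysome difference being -0.23 in Foxp3+ cells and -1.46 in Foxp3- cells. The call was lost with only the arrays compared (0.541), with array weights (0.427), with an intensity trend (0.193), without array 9 (0.156) and without array 10 (0.162). Since no label ties a cytosolic array to a polysome array, an analysis of covariance, in which the cytosolic value enters as a covariate, was run over all 16 ways of pairing them. It gave Ikzf4 a difference of 3.02 to 3.92, called in 16 of 16 pairings (adjusted p = 0.0481 to 0.0893), with a slope on the cytosolic value of -0.20 to 0.20. At slopes this near 0 the model corrected little for cytosolic mRNA, its values lie on either side of the uncorrected polysome difference of 3.47, and these calls restate that difference. The interaction, the subset difference in activated polysomes, the activation difference of Foxp3- polysomes and the polysome difference of activated Foxp3- cells share arrays 10 and 12, the lowest of Ikzf4.

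The other members had no called differential translation in activated cells by limma, at -0.52 for Foxp3 (95% interval -2.14 to 1.11), 0.43 for Ikzf1 (-0.63 to 1.49), 0.59 for Ikzf2 (-1.21 to 2.38) and -0.17 for Ikzf3 (-1.39 to 1.05). Under the covariance model they were called in some pairings, Foxp3 in 4 of 16, Ikzf1 in 4, Ikzf2 in 8 and Ikzf3 in 2, but in 0 of the pairings whose slope lay between -0.5 and 1.5, the limits of the study's methods (8 pairings for Foxp3, Ikzf1 and Ikzf2 and 12 for Ikzf3). In ex vivo cells limma called 0 of 5 members and 0% of the 16475 genes, with 0 members and 193 genes (1.17%) at an unadjusted p under 0.05. With only the arrays compared 1 gene was called, with array weights 2 and with an intensity trend 0, none of them a member. The covariance model called Ikzf2 in 7 of 16 pairings ex vivo, Ikzf4 in 4, Foxp3 in 3, Ikzf3 in 1 and Ikzf1 in 0, and within the slope limits only Ikzf4, in 4 of 16. The ex vivo value of Ikzf4 was 0.54 (95% interval -0.21 to 1.29) and that of Ikzf2 was 0.99 (-0.80 to 2.78). Those of Foxp3, Ikzf1 and Ikzf3 were -0.85 (-2.47 to 0.78), 0.24 (-0.82 to 1.30) and -0.60 (-1.82 to 0.62). For Ikzf2 both ex vivo cytosolic means and the Foxp3- polysome mean were not shown to be above background, so its value is no estimate of translation. The ex vivo Foxp3- means of Foxp3 also lay below the middle of all genes.

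In the order of group means, Ikzf2 was highest in Foxp3+ activated polysomes (8.80 ± 1.19) and Foxp3+ activated cytosol (7.45 ± 1.17), which overlapped, then Foxp3+ ex vivo polysomes (5.44 ± 0.63; SD, n = 2 each). Ikzf3 had the 4 activated groups first, from Foxp3+ polysomes (9.64 ± 0.60) to Foxp3- cytosol (8.54 ± 0.39), with each neighbour overlapping the next, and a gap of 0.65 to the ex vivo groups. Ikzf4 had the 4 Foxp3+ groups first, between 7.65 ± 0.54 and 6.97 ± 0.11, and a gap of 0.95 to the Foxp3- groups, of which activated polysomes were last at 3.95 ± 0.05. Ikzf1 ran from 8.93 ± 0.19 in Foxp3- activated polysomes to 7.33 ± 0.46 in Foxp3+ activated cytosol, and the 4 groups next to the highest overlapped from neighbour to neighbour. As a description over the 16 arrays, which share 8 group means, Foxp3 correlated with Ikzf4 at r = 0.72, with Ikzf2 at 0.67, with Ikzf3 at 0.52 and with Ikzf1 at -0.55. Ikzf2 and Ikzf3 correlated at 0.73, and Ikzf3 and Ikzf4 at 0.10.

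The genes most like each member were ranked by Pearson r over the 16 arrays, among 10918 other genes whose group means spanned at least 1 log2 unit. Foxp3 was most like Lgals1 (galectin-1, r = 0.97), Capg (an actin-capping protein, 0.92) and Itgae (the integrin chain CD103, 0.91). Ikzf4 was most like Gpr83 (a G protein-coupled receptor, 0.93), Dyrk1b (a protein kinase, 0.93) and Meg3 (a non-coding RNA, 0.92). Ikzf2 was most like Pdzrn3 (0.95), Tiam1 (an activator of Rac, 0.95) and Tnni2 (a troponin, 0.93), of which Pdzrn3 varied only between group means of 2.60 and 3.84. Ikzf3 was most like Ccr8 (a chemokine receptor, 0.96), Dclre1a (a DNA repair nuclease, 0.96) and Izumo1r (folate receptor 4, 0.95). Ikzf1 was most like Fbxo22 (an F-box protein, 0.92), Nae1 (a subunit of the NEDD8-activating enzyme, 0.90) and Polr3e (a subunit of RNA polymerase III, 0.90). Of the 15, Lgals1, Fbxo22 and Ccr8 also stood among the 3 most alike over the 8 group means.

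The related genes were read in the subset difference of polysome-associated mRNA in activated cells, where the median of all genes was 0.20 and 18.7% of genes were called higher and 13.7% lower. Of 20 measured genes known to be raised by Foxp3 in regulatory T cells, 15 were called higher in Foxp3+ cells and 0 lower, with a median difference of 1.94, and 13 were called with array weights. Nt5e (CD73, an ectonucleotidase) differed by 4.44 ± 0.29 (SE, 8.84 in Foxp3+ against 4.40 in Foxp3- cells), Itgae by 4.69 ± 0.33 and Tnfrsf9 (the costimulatory receptor 4-1BB) by 2.42 ± 0.25. Ex vivo, 17 of the 20 were called higher in each fraction, beside 2.06% of all genes in the cytosol and 1.62% in polysomes. Of 11 measured genes known to be lowered by Foxp3, 6 were called lower and 0 higher, with a median of -1.11 (4 called with array weights), among them the cytokine genes Il4 (-4.37 ± 0.31) and Il2 (-3.03 ± 0.75) and the chromatin organizer Satb1 (-6.05 ± 0.47, 3.97 in Foxp3+ against 10.01 in Foxp3- cells). These lists overlap the genes most like the members, as Itgae, Capg, Gpr83, Izumo1r and Ccr8 stand in the list of raised genes.

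Of 31 measured partners and regulators of Foxp3, 3 were called higher, 3 lower and 25 neither, with a median of 0.03, beside 32.4% of all genes called in either direction, and with array weights 1 of the 31 was called. Besides Satb1, the called genes with the smallest adjusted p were Foxo1 (a forkhead factor, 1.46 ± 0.42), and Nfatc3 (an NFAT factor, -0.93 ± 0.32). The call of Foxo1 was lost with only the arrays compared (limma adjusted p = 0.277), with array weights (0.167) and without array 16 (0.76, 0.186). That of Nfatc3 was lost with only the arrays compared (0.242), with array weights (0.387), after cyclic loess (-0.75, 0.165) and without array 10 (-0.74, 0.253) or 14 (-0.85, 0.186). Of 16 measured subunits of the NuRD, CtBP and Sin3 corepressor complexes, to which Ikaros and Eos bind, 2 were called higher and 2 lower, with a median of 0.05, beside 32.4% of all genes, and 2 were called with array weights. Ex vivo limma called 0 of 16 in either fraction, with 1 of 16 at an unadjusted p under 0.05 in each, 0 with an intensity trend, and 4 in polysomes and 6 in the cytosol with array weights. Of all genes 3.87% were called in ex vivo polysomes and 4.64% in the ex vivo cytosol. The following values are again those of activated polysomes. Hdac2, a histone deacetylase, differed by -3.18 on the log2 scale (SE 0.80), Rbbp7, a histone-binding subunit, by -1.02 (SE 0.25) and Sin3b, a scaffold, by 0.78 (SE 0.28). With only the arrays compared, Hdac2 (limma adjusted p = 0.208), Rbbp7 (0.255) and Sin3b (0.306) all lost their calls. Sin3b also fell short with array weights (0.221), without array 12 (0.58, 0.315) or 16 (0.59, 0.258) and after centring the arrays (0.65, 0.167).

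The cereblon ubiquitin ligase degrades human Ikaros and Aiolos in the presence of thalidomide analogs. Of its 5 measured subunits, 4 were called lower in polysomes of activated Foxp3+ cells and 0 higher, with a median of -1.31, beside 13.7% of all genes called lower, and with array weights 2 of the 5 were called. The scaffolds Cul4b and Cul4a differed by -3.12 ± 0.37 and -2.93 ± 0.73 (SE), and the RING subunit Rbx1 by -0.76 ± 0.22. The call of Rbx1 was lost with only the arrays compared (limma adjusted p = 0.282), with array weights (0.214) and after cyclic loess (-0.58, 0.154). The substrate receptor Crbn was the other called gene, at 4.69 in Foxp3+ cells and 6.00 in Foxp3- cells (-1.31 ± 0.47, limma adjusted p = 0.0829), named as the remainder of that count. Ex vivo, limma called 0 of the 5 in either fraction, with 1 of 5 at an unadjusted p under 0.05 in each, 0 with an intensity trend, and 2 in polysomes and 3 in the cytosol with array weights. The shares of all genes called ex vivo were 3.87% in polysomes and 4.64% in the cytosol.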

How the data were processed

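The authors extracted RNA from sorted cells, amplified and labelled it for Affymetrix arrays, and normalized the arrays by RMA with gene-based probe set definitions. The deposited values are log2 intensities for 16539 probe sets, of which 64 control probe sets were left out. Symbols came from the platform annotation, checked by gene ID against RefSeq (GRCm38.p6), and 15780 of 16475 genes had one. Depth has no counterpart on arrays, and 2 arrays per group limit the precision.

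Groups were taken from the labels. A limma model (version 3.58.1, R 4.3.3) with 1 mean for each of the 8 groups was fitted to all 16 arrays (8 residual degrees of freedom, median residual SD 0.349), without a filter on low values, with Benjamini-Hochberg adjustment over all 16475 genes and moderated tests, all two-sided. The threshold was an adjusted p under 0.15 for subset comparisons and for differential translation in activated cells and under 0.3 for differential translation ex vivo, as in the methods of the study. The threshold of 0.15 was carried over here to subset comparisons ex vivo, and 0.05 was chosen here for the rest. The 5 members were tested in 16 comparisons, 80 tests in all.

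The study's own test of translation needs paired arrays and filters on the slope, and was not run; an interaction term was used, with an analysis of covariance over 16 pairings as an alternative, and, added after seeing the data, over those pairings whose slope lay within the study's limits. Each result was also refitted with cyclic loess, with arrays centred on their medians, on genes above the median mean only, with an intensity trend, with array weights, on the compared groups alone and without each array in turn. Array numbers are those of the sample titles. Named genes were the members, Ikzf5, the 3 genes most correlated with each member, and from each list up to 3 called genes with the smallest adjusted p in activated polysomes. Members and lists were chosen with earlier results of these data known. A few of the listed genes and markers are not reported here.

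On simulated data with the residual spread of each gene, for the subset comparison in activated polysomes and 16475 genes, the fit recovered 70% of 100 genes changed by 2 log2 units and 20% of 100 genes changed by 1, with 19 false calls among 109. The simulation gave all arrays of a gene the same spread, so it left out the wider spread of activated Foxp3+ arrays. It changed 200 genes, whereas 32.4% of genes were called in the data. These rates therefore check the fit and are not the error rates of the real comparison. Sequences and motif counts were read with Python 3.11.15 and pandas 2.3.3, and plots drawn with matplotlib 3.10.9.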

Additional observations from a re-analysis of the deposited data

Results flagged for a closer look

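Ikzf4 gave 2 results in which the subsets differed by a test of the difference itself. In polysomes its response to activation was 1.89 higher in Foxp3+ than in Foxp3- cells (limma adjusted p = 0.0179). Its differential translation in activated cells was 1.23 higher in Foxp3+ than in Foxp3- cells (limma adjusted p = 0.0937). Both use the activated Foxp3- polysome arrays 10 and 12, and those arrays belong to another array series than the Foxp3+ ones, so subset and series cannot be told apart.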

How the results depend on the processing

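No paired analysis was possible because no label gives the pairing, so the analysis of covariance was run over all 16 possible pairings. The median of all genes differed between the subsets by 0.09 to 0.20 before and by 0.01 to 0.03 after cyclic loess. With only the arrays compared, members called rose to 5 (ex vivo cytosol) and 4 (ex vivo polysomes) in the subset comparison, and fell to 1 for activation of Foxp3+ cytosol and to 0 for the fractions of activated Foxp3- cells and for differential translation in activated cells. Over all genes, with only the arrays compared, 0 were called for either fraction comparison and for differential translation in activated cells (768, 639 and 1232 in the full fit), 224 for the fractions of ex vivo Foxp3- cells (10), 3056 and 2254 for activation of Foxp3+ cytosol and polysomes (5165 and 4825), and 159 for the response in polysomes (425). Array weights called 5326 (cytosol) and 4103 (polysomes) genes ex vivo and 1368 and 1996 in activated cells between the subsets, 142 and 665 between fractions ex vivo (Foxp3+, Foxp3-), 0 and 238 in activated cells, and 126 for differential translation in activated cells. Array weights gave 5 and 4 members ex vivo and 0 for differential translation in activated cells. An intensity trend gave 0 there and 0 for the activation response in polysomes, and cyclic loess gave 4 for activation of Foxp3- polysomes. Leaving out 1 array at a time, members called ranged 1 to 3 (subset, ex vivo cytosol), 1 to 3 (activation, Foxp3+ cytosol), 1 to 3 (activation, Foxp3- cytosol), 0 to 2 (fractions, activated Foxp3+), 0 to 1 (differential translation, activated), 0 to 1 (activation response, cytosol) and 0 to 2 (activation response, polysomes).

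No called value of a member changed sign under a change of scaling, fit or left-out array. Uncalled values that did were, after cyclic loess, activation of Foxp3 (0.21) and Ikzf1 (0.0785) in Foxp3+ cytosol, Ikzf1 in Foxp3- cytosol (0.24) and Ikzf4 in Foxp3+ polysomes (0.0035), and after centring Foxp3 between fractions of activated Foxp3+ cells (0.0572). By analysis of covariance, differential translation ex vivo reached 19.1 for Foxp3 (slope -1.96), 2.88 for Ikzf3 (-1.28) and -0.86 for Ikzf1 (-0.9985), and in activated cells 12.97 for Foxp3, 1.73 for Ikzf3 and -1.66 for Ikzf1 at the same slopes. All of these slopes lie outside the limits of -0.5 and 1.5, so the values are no estimate of translation. Within those limits, a restriction added after seeing the data, the values that changed sign were not called, at 5.26 to 6.49 ex vivo and 3.62 to 4.45 in activated cells for Foxp3, 1.66 and 1.06 for Ikzf3, and -0.0333 and -0.0896 for Ikzf1. With 1 array left out, uncalled values ranged as follows. Foxp3: activation of Foxp3+ cytosol -0.71 to 0.00915 and polysomes -1.11 to 0.23, fractions of Foxp3+ ex vivo -0.12 to 0.24, of Foxp3+ activated -0.70 to 0.64 and of Foxp3- activated -0.31 to 1.28, differential translation in activated cells -1.31 to 0.28. Ikzf1: activation of Foxp3+ polysomes -0.16 to 0.79 and of Foxp3- cytosol -0.35 to 0.27, fractions of Foxp3+ ex vivo -8.8e-04 to 0.29 and of Foxp3- ex vivo -0.26 to 0.0565, differential translation in activated cells -0.0408 to 0.91, activation response in polysomes -0.78 to 0.17. Ikzf2: differential translation in activated cells -0.25 to 1.43. Ikzf3: fractions of Foxp3- ex vivo -0.13 to 0.34 and of Foxp3+ activated -0.15 to 0.70, differential translation in activated cells -0.59 to 0.26, activation response in polysomes -0.69 to 0.16. Ikzf4: fractions of Foxp3- ex vivo -0.0506 to 0.20 and of Foxp3+ activated -0.61 to 0.15. The cause of these changes was not tested.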

Other observations

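Ikzf5 fell by 1.53 on the log2 scale with activation in Foxp3- polysomes (SE 0.37, limma adjusted p = 0.00872), at 4.21 and 4.20 in activated cells, against 5.65 and 5.82 in ex vivo cells. Of all genes 30.6% were called there. The activated mean of 4.20 had 38.6% of genes below it and was not shown to be above background, so the value is a bound. Ikzf5 was not refitted as the members were. In Foxp3+ polysomes its values were 4.40 and 4.24 in activated cells, against 5.14 and 4.13 in ex vivo cells, and the difference was -0.31 (95% interval -1.12 to 0.50). The difference between these responses was 1.22 (95% interval 0.08 to 2.36, limma adjusted p = 0.265).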
